A study of Mus musculus with 16 samples.

Results

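Restraint stress was compared within cypermethrin-exposed pregnancies: 4 embryos whose dams received the insecticide and were restrained, against 4 whose dams received the insecticide only. These are 8 of the 16 samples of the series, chosen by the exposures in their labels, and all 24539 genes of the count table were carried through. GABAergic interneurons of the cortex are born in the ganglionic eminences of the ventral forebrain and migrate tangentially into the cortical plate, guided by chemokine and neuregulin signals. Maternal restraint releases glucocorticoids, which act through the glucocorticoid receptor on genes such as Fkbp5, Sgk1 and Tsc22d3, and pyrethroids such as cypermethrin keep voltage-gated sodium channels open. How far stress adds to the insecticide in these cells is the question that the comparison addresses.

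The dams were CD1 mice, and the embryos were males carrying 1 GAD67-GFP allele, which puts green fluorescent protein under the gene for the GABA-synthesising enzyme GAD67, taken at embryonic day 14.5 with 1 embryo per litter. All 8 dams were given alpha-cypermethrin by gavage, 10 mg/kg a day from gestational day 11 to 14, and the dams of the other 8 embryos of the series were given corn oil as vehicle, with or without restraint. The stressed dams were restrained under bright light in 3 sessions of 45 min on days 12 and 13, and on day 14 a final restraint ended 15 min before they were killed, 90 min after the last gavage. About 100 fluorescent cells were laser-captured from each of 10 cortical sections of 10 µm after fixation in 4% paraformaldehyde, so a library stands for about 1000 cells of the cortical plate and not for single cells.

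Libraries of stressed embryos held 4012000 ± 315800 counts (SD, n = 4; range 3673832 to 4324129) and those of non-stressed embryos 3351000 ± 793500 (SD, n = 4; range 2291283 to 4091668). The difference did not pass an exact two-sided permutation test (p = 0.143, 70 splits; smallest possible 0.0286). Over the tested genes, the median Pearson correlation of log2 levels was 0.883 among the stressed libraries (6 pairs), 0.827 among the non-stressed (6 pairs) and 0.851 between the groups (16 pairs). Non-stressed libraries 3 and 4 stood apart, with median correlations of 0.808 and 0.809 to the other libraries, and 706 and 922 tested genes at a count of 0. Stressed library 1 had 688 such genes, and the other 5 libraries had 9 to 388. Xist had at most 8 counts and the Y-linked genes at least 755 in each of the 8, as the male label requires. In 1 vehicle-exposed stressed library, which enters only the shared estimate of spread and the interaction, Xist had 9521 counts and the Y-linked genes 1.

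The labels call the captured material GABAergic, and its defining transcripts were present in all 8 libraries. Gad2, which encodes the second GABA-synthesising enzyme, had 212 to 341 CPM (counts scaled to a common, effective library size) in the stressed embryos and 207 to 456 in the non-stressed. Lhx6, a transcription factor of interneurons from the medial ganglionic eminence, had 203 to 347 and 172 to 314 CPM. The labels also name neural progenitors, and there the markers were divided. Mki67, a proliferation marker, had 5589 counts over the 8 libraries, while the progenitor transcription factor genes Hes5, Eomes and Pax6 had 6, 76 and 266. The tested radial glia and intermediate progenitor markers summed to 1641 to 1957 CPM with stress and 1717 to 2023 without. Transcripts of excitatory neurons were also plentiful, with 765 to 1051 CPM of Tbr1 in the stressed and 1009 to 1304 in the non-stressed embryos. Over the 8 libraries Gad1, the GAD67 gene, had a mean of 76.1 CPM, Tbr1 of 1000 and Neurod6 of 1320. Excitatory markers summed to 5528 to 7556 CPM with stress and 6553 to 7827 without. Interneuron identity genes summed to 4985 to 5687 and 4888 to 7121 CPM. The lists differ in their members, so their sums do not give shares of cells. In such bulk material, fewer cells of a type and less RNA per cell cannot be told apart.

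No gene passed the test for restraint stress. Of 13224 genes tested, 0 (0%) had a Benjamini-Hochberg adjusted p under 0.05 with edgeR's quasi-likelihood test (smallest adjusted p = 0.997), and DESeq2 (smallest adjusted p = 0.116) and limma voom also called 0. At an unadjusted p under 0.05 there were 570 genes (4.31%), of which 201 (1.52%) were fitted higher and 369 (2.79%) lower in the stressed embryos, with 766 by DESeq2 and 524 by limma voom. Without the vehicle-exposed library whose Xist went against its label, 0 genes were called and 820 had an unadjusted p under 0.05. The 570 are described below and are not called changed, since a share near 5% is what a test at this level gives when nothing differs. Limma voom divided its genes into 263 higher and 261 lower, so the excess of lower genes, 64.7% with edgeR, was 49.8% there. Precision depended on level: the standard errors on the log2 scale had a median of 0.54 over all tested genes, with 0.27 in the quartile of highest level and 1.16 in the lowest.

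**Figure D1:**
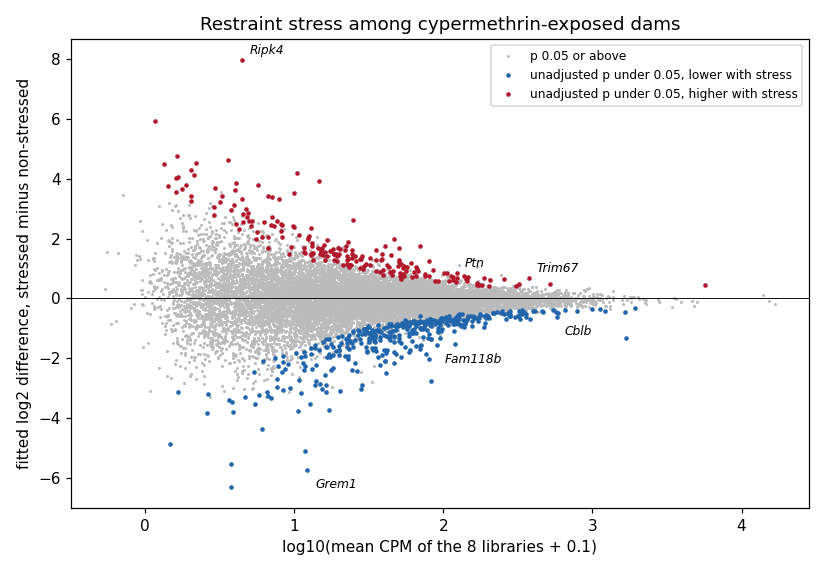
Fitted log2 difference (stressed minus non-stressed) on the vertical axis against log10 of the mean CPM of the 8 libraries on the horizontal axis, 1 point per tested gene; coloured points have an unadjusted p under 0.05 (369 lower in blue, 201 higher in red). Differences narrow with level, and the lower genes outnumber the higher ones on the right.

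The lean towards lower values grew with expression level. In the highest quartile of genes 34 were fitted higher and 133 lower at an unadjusted p under 0.05, whereas in the lowest quartile 61 were higher and 39 lower. The groups did not overlap for 341 genes (2.58%), with all 4 stressed libraries above all 4 non-stressed for 181 (1.37%) and below them for 160 (1.21%). Both criteria held for 154 genes (1.16%).

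The lower genes had their highest level in the non-stressed libraries that stood apart. Library 3 or 4 of that group held the highest level of 356 of the 369 lower genes (96.5%), against 4899 of all 6837 genes fitted lower (71.7%) and 5730 of all tested genes (43.3%). Of the 201 higher genes, 117 (58.2%) were highest in stressed library 1 and 63 (31.3%) in stressed library 2. Over all tested genes these shares were 18.2% and 13.7%. Without non-stressed libraries 3 and 4, a fit chosen after seeing the data, 168 genes had an unadjusted p under 0.05 (94 higher and 74 lower), 50 of them among the 570. Without non-stressed libraries 1 and 2 the count was 1724, and 2 genes, Rimbp2 and Fam118b, were called (smallest adjusted p = 0.0368). Leaving out 1 library at a time gave counts from 376 without stressed library 1 to 886 without non-stressed library 1, with 0 called each time. Of the 570 genes, 55 stayed under 0.05 in all 8 of these fits, 20 higher and 35 lower. All 35 lower ones were highest in non-stressed library 3 or 4. Each fit without 1 library keeps at least 1 of that pair, so these fits cannot separate the lower genes from it.

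**Figure D2:**
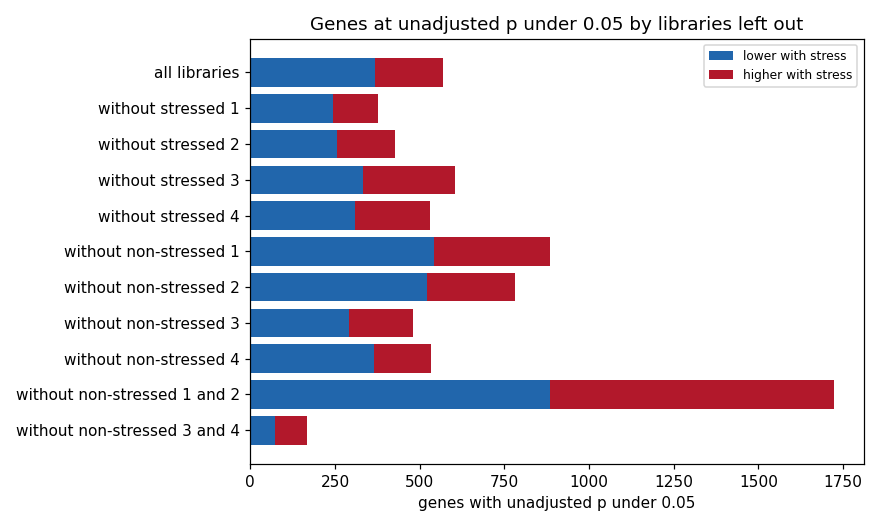
Number of genes with an unadjusted p under 0.05 on the horizontal axis for each set of libraries left out on the vertical axis, lower genes in blue and higher genes in red stacked from 0. The full set gives 570, the fit without non-stressed 3 and 4 gives 168, and the fit without non-stressed 1 and 2 gives 1724.

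Among the genes of smallest p, a small number differed by a similar amount with any 1 library left out. Lcorl, which encodes a DNA-binding protein related to the nuclear receptor corepressor LCoR (chromosome 5, 45697181 to 45857615, mm10, minus strand), had 283, 210, 268 and 247.5 CPM in the stressed libraries and 394, 368, 429 and 415 CPM in the non-stressed. The groups did not overlap, and the non-stressed libraries lay within a narrow range. The log2 difference was -0.67 ± 0.18 (SE), and it ran from -0.73 to -0.60 when 1 library was left out. The gene overlaps Ncapg, and since the use of strand in counting is not given, some of its reads may come from there.

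Ptn was the clearest case in the opposite direction. It encodes pleiotrophin, a secreted heparin-binding growth factor (chromosome 6, 36714929 to 36810220, minus strand), and had 163.5, 160, 176 and 135 CPM in the stressed libraries against 87.5, 88.5, 111 and 61.2 CPM in the non-stressed. Every stressed library was above every non-stressed one. The log2 difference was 0.86 ± 0.26 (SE), from 0.72 to 1.00 with 1 library left out and 0.84 without non-stressed libraries 3 and 4. The labels give 2 library codes, of which the first holds 2 stressed libraries and only 1 non-stressed. Within them the differences were -0.69 and -0.64 for Lcorl and 0.87 and 0.84 for Ptn, the first value of each resting on that single library. In vehicle-exposed embryos the log2 difference with stress was -0.11 for Lcorl and 0.26 for Ptn.

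Among genes whose groups did not overlap, those of highest level showed small differences. H3f3a, a gene for the replication-independent histone H3.3, had 517, 539, 599.5 and 606 CPM with stress and 688, 781, 885 and 621 without (log2 difference -0.40 ± 0.16, SE). Gpm6a, which encodes a neuronal membrane glycoprotein of growing processes, had 875, 907, 1082 and 1088 CPM with stress and 1176, 1182, 1422 and 1235 without (-0.34 ± 0.15). For both genes the lowest non-stressed library was above the highest stressed one, and the differences without non-stressed libraries 3 and 4 were -0.38 and -0.26. Nfia, a transcription factor gene of the nuclear factor I family, did not overlap by a margin of 1914 against 1918 CPM, with a log2 difference of -0.33 ± 0.14.

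Signalling and vesicle genes made up the rest of this set. Trim67, which encodes a neuronal ubiquitin ligase, was higher, with 559, 578.5, 357.5 and 363 CPM in the stressed libraries and 330, 325, 276 and 222 in the non-stressed (0.69 ± 0.22). Cblb, the gene of a ubiquitin ligase that limits receptor signalling, had 508.5, 396.5, 396 and 524 CPM against 576, 553, 806 and 881 (-0.62 ± 0.21). The difference for Cblb was -0.31 without non-stressed libraries 3 and 4, while that for Trim67 was 0.50. Nf1, which encodes the Ras-inactivating protein neurofibromin (-0.44 ± 0.18), and Cadps, which encodes a vesicle-priming factor (-0.50 ± 0.21), had their highest level in non-stressed library 4, and without it stood at -0.23 and -0.27.

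**Figure D3:**
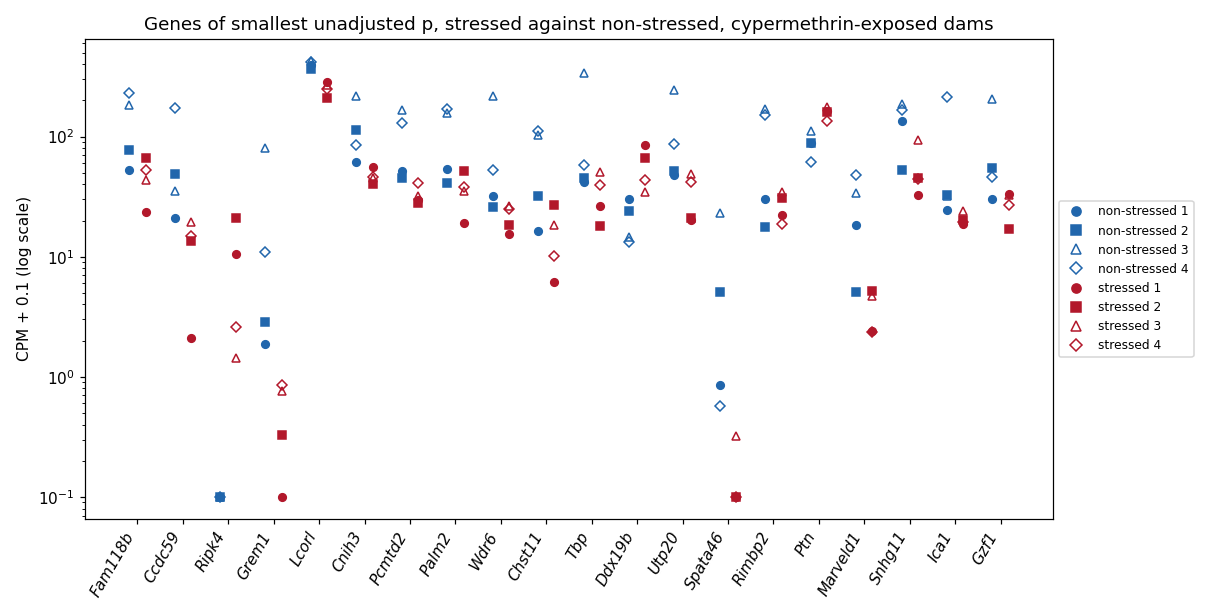
CPM of each library on a log axis (vertical; a small constant is added so that libraries at 0 can be drawn) for the 20 genes of smallest unadjusted p in order of p (horizontal), non-stressed libraries in blue and stressed in red with 1 symbol per replicate. For Fam118b, Wdr6, Tbp and others the open blue symbols of non-stressed 3 or 4 lie far above the rest, while for Lcorl and Ptn the groups form separate bands.

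Non-stressed library 3 or 4 was the highest for 17 of the 20 genes of smallest p (85%), and several differences were much smaller without them. Fam118b, the gene of smallest p (chromosome 9, 35216965 to 35267805, minus strand, overlapping Srpr), had 23.4, 65.7, 43.5 and 52.3 CPM with stress and 52.2, 77.7, 182.5 and 230 CPM without. The groups overlapped, and the last 2 non-stressed libraries were the high ones. Its log2 difference was -1.55 ± 0.38 (SE) in the full set and -0.49 without them. Rimbp2, which encodes a protein of the presynaptic active zone, had 22.3, 30.7, 34.4 and 18.7 CPM against 30.3, 17.6, 169 and 150 CPM. Its difference went from -1.79 ± 0.53 to 0.14 without the pair. The same split appeared for Palm2, a paralemmin gene that shares its locus with Pakap (-1.54, and -0.39 without the pair), for Pcmtd2 (-1.59, and -0.57) and for Chst11, which encodes a chondroitin sulfotransferase (-2.10, and -0.66).

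For another set a single non-stressed library was high. Tbp, the gene of the TATA-binding protein of the basal transcription machinery, had 336 CPM in non-stressed library 3, 41.9 to 58.4 in the other 3 of its group and 17.8 to 50.3 in the stressed libraries. Its log2 difference was -1.84 ± 0.53, and -0.53 without library 3. Wdr6, Gzf1 and Utp20, the last a gene of ribosome assembly, were highest in the same library, and went from -1.96, -1.62 and -1.70 to -0.80, -0.69 and -0.92 without it. Ica1, which encodes a protein of secretory vesicles, had 213.5 CPM in non-stressed library 4 against 18.8 to 32.4 CPM in the other 7 libraries, and went from -1.86 to -0.51 without it. Ccdc59, with 174 CPM in that library against 20.9 to 49.0 in the rest of its group and 2.02 to 19.4 in the stressed libraries, went from -2.48 ± 0.62 to -1.50.

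Cnih3, Snhg11 and Ddx19b had larger fitted differences than Lcorl and Ptn, with larger standard errors. Cnih3, which encodes an auxiliary subunit of AMPA-type glutamate receptors (chromosome 1, 181352628 to 181460641, plus strand), had 55.8, 39.9, 45.0 and 45.9 CPM with stress and 60.8, 114, 217 and 85.5 CPM without. No library overlapped, and the stressed libraries lay close together. The log2 difference was -1.36 ± 0.36 (SE), -0.90 without non-stressed library 3, and -0.36 and -1.61 within the 2 library codes. Snhg11, a noncoding small nucleolar RNA host gene, had 32.4 to 92.7 CPM with stress and 52.4 to 188 without (-1.33 ± 0.40). Ddx19b, a gene of an RNA helicase in messenger RNA export, was higher with stress, with 85.5, 66.7, 34.7 and 43.1 CPM against 30.0, 24.1, 14.6 and 13.1 CPM (1.48 ± 0.43). Its groups did not overlap, and its difference without non-stressed libraries 3 and 4 was 1.08.

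Several genes near the floor completed the 20. Ripk4, which encodes a kinase of epithelial differentiation, had 143 counts over the stressed libraries and 0 in all 4 non-stressed. The stressed libraries had 10.4, 21.0, 1.33 and 2.49 CPM, and the vehicle means were 2.36 with stress and 3.36 without. Against a floor of 3 counts over the group, the ratio of scaled counts was 38.3, which leaves out the spread between libraries. The fitted log2 difference was 7.96, with a 95% interval from 3.88 to 12.0. Grem1, the gene of an antagonist of bone morphogenetic proteins, had 0, 0.231, 0.662 and 0.748 CPM with stress and 1.77, 2.77, 80.5 and 10.7 CPM without. Non-stressed library 3 carried most of its counts, and its fitted log2 difference of -5.73 ± 1.46 was -3.50 without that library. Spata46 had 1 count with stress and 107 without, a ratio of scaled counts of 133 (95% interval 23.4 to 5315, counting error only), most of it again in non-stressed library 3 at 23.1 CPM. Marveld1 had 2.24 to 5.08 CPM with stress and 4.93 to 47.6 without (-2.86 ± 0.85).

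Gene lists for stress, toxic response, interneuron biology and neighbouring cell types held 588 tested genes in 28 lists. Of these 588, 20 (3.4%) had an unadjusted p under 0.05, 9 higher and 11 lower, beside 4.31% of all tested genes. The groups did not overlap for 9 (1.53%), beside 2.58%. The counts of each list below are read against a share of 48.3% fitted higher and 51.7% fitted lower over all tested genes, whose median fitted log2 difference was -0.02.

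**Figure D4:**
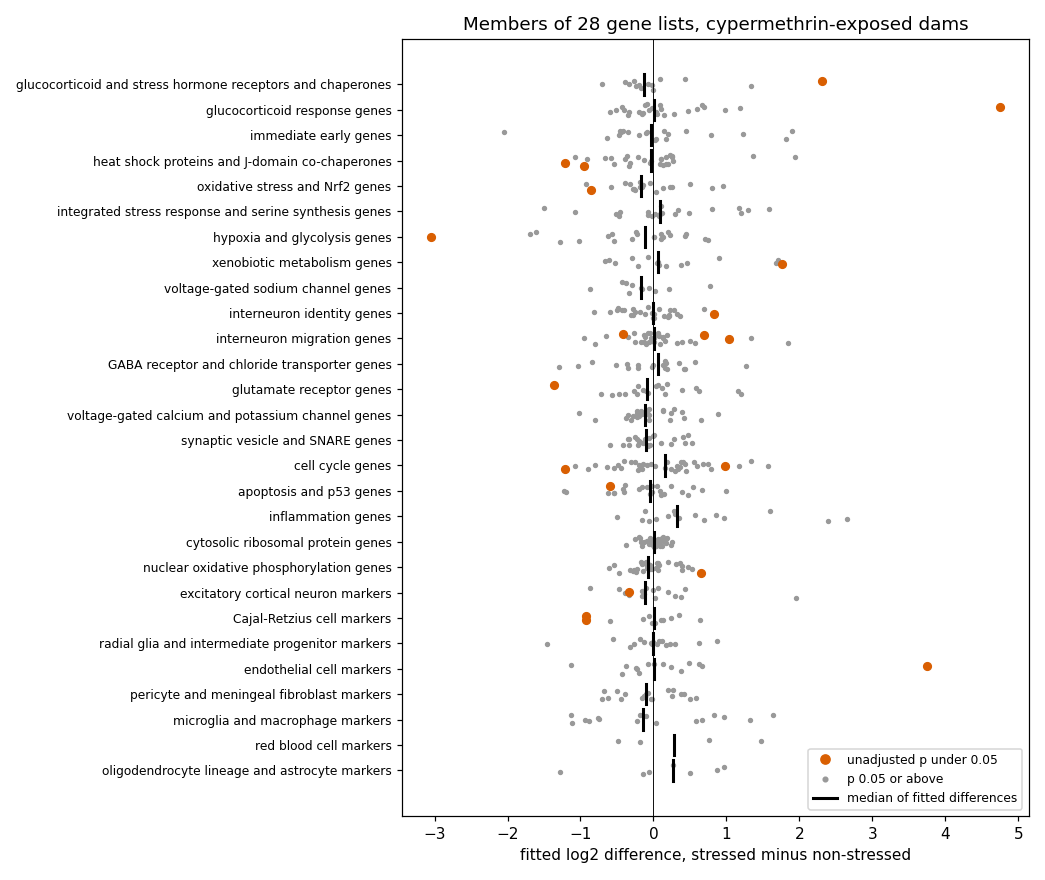
Fitted log2 difference (stressed minus non-stressed, horizontal) of each tested member of 28 gene lists (vertical), 1 point per gene, orange where the unadjusted p is under 0.05 and with a black bar at the median. List medians lie near 0 for the neuronal, stress and metabolic lists, and single members spread to both sides.

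In the stress hormone axis, more receptor and chaperone genes were fitted lower than higher, while glucocorticoid response genes divided evenly. Of 14 tested genes of stress hormone receptors and their chaperones 4 lay above 0 and 10 below, and the median fitted difference was -0.13. Nr3c1, the glucocorticoid receptor gene, had 14.7, 19.1, 21.6 and 14.2 CPM with stress and 32.0, 18.8, 51.5 and 10.7 without, a log2 difference of -0.70 ± 0.62 (SE), and -0.25 without non-stressed library 3. Among 26 glucocorticoid response genes 13 were higher and 13 lower. Fkbp5, a co-chaperone gene that the receptor induces, had 19.1, 37.1, 36.4 and 38.1 CPM with stress and 35.3, 24.7, 43.3 and 47.2 without. Its log2 difference was -0.20, with a 95% interval from -1.09 to 0.69, a range that spans differences in either direction, and it was -0.01 without stressed library 1.

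The other steroid-responsive genes were as variable. Sgk1, a kinase gene induced by glucocorticoids, had 12.2 to 44.2 CPM with stress and 6.91 to 38.3 without (0.28 ± 0.54, and -0.04 without non-stressed library 3), and Tsc22d3, which encodes the anti-inflammatory protein GILZ, had 6.98 to 27.7 and 2.80 to 11.7 CPM (0.99 ± 0.75). Stressed library 1 held the 27.7 CPM, and without it the Tsc22d3 difference was 0.35. Cebpd, a transcription factor gene of the acute response, had 44 counts with stress and 1 without, a ratio of scaled counts of 35.3 (95% interval 6.02 to 1426, counting error only). Stressed library 1 held 8.96 CPM of it, and the other 3 held 0.231 to 2.24. Adra2a, an adrenergic receptor gene, had 0.867, 7.84, 7.73 and 11.7 CPM with stress and 0 to 2.02 without (2.31 ± 1.10).

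Immediate early genes, which neurons transcribe within minutes of a stimulus, divided into 10 higher and 10 lower of 20, none at an unadjusted p under 0.05. Fos and Junb, with 16 and 30 counts over the 8 libraries, had too few to test. Egr1 had 17.3 to 43.4 CPM with stress and 15.1, 23.1, 112 and 43.0 without; its difference was -0.63 ± 0.55, and 0.21 without non-stressed library 3. Nr4a3, an orphan nuclear receptor gene (-0.45 ± 0.25), and Homer1, which encodes a postsynaptic scaffold protein (-0.42 ± 0.25), were highest in non-stressed library 4, without which Nr4a3 stood at -0.15.

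Cellular stress genes likewise moved to both sides. Heat shock and J-domain genes were fitted higher for 13 and lower for 15 of 28. The members of smallest p were Hsf2, a heat shock transcription factor gene (-0.95 ± 0.37), and Dnajb9, an endoplasmic reticulum co-chaperone gene (-1.22 ± 0.55), both highest in non-stressed library 3. Without that library they stood at -0.50 and -0.10, and Dnajb9 had 159 CPM there and 22.8 to 33.3 in the rest of its group. Of 20 oxidative stress genes 7 were higher and 13 lower, with Gclc, which makes the rate-limiting subunit of glutathione synthesis, at -0.86 ± 0.40 and -0.34 without non-stressed library 3. Hmox1, the haem oxygenase gene, had 2.49 to 31.1 CPM with stress and 4.20 to 24.4 without (0.50 ± 0.74, and 0.08 without stressed library 2).

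The integrated stress response list had 13 higher and 8 lower of 21, and the hypoxia list 11 and 11 of 22. Sqstm1, which encodes an autophagy receptor, had 36.7 to 70.6 CPM with stress and 9.83 to 50.9 without (0.95 ± 0.50). Egln3, an oxygen-sensing hydroxylase gene, had 52.6 CPM in non-stressed library 3 and at most 5.30 in the other 7 libraries, and went from -3.05 ± 1.26 to -0.48 without it.

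In the lists closest to the insecticide, more xenobiotic metabolism genes were fitted higher and more sodium channel genes lower. Xenobiotic metabolism genes were higher for 10 and lower for 6 of 16. Cyp46a1, the brain cholesterol hydroxylase gene, was low but did not overlap, with 2.08 to 4.33 CPM against 0.467 to 1.54 (1.68 ± 1.03). Of 11 voltage-gated sodium channel and related genes 3 were higher and 8 lower, none at an unadjusted p under 0.05. Scn2a, the gene of a main sodium channel of embryonic neurons, had 82.1, 137.5, 147 and 155 CPM with stress and 151, 121.5, 141 and 99.9 without, a log2 difference of 0.02 with a 95% interval from -0.52 to 0.56. Scn3a, another embryonic channel gene, stood at -0.43 ± 0.26, at -0.05 without non-stressed library 3 and at 0.25 without libraries 3 and 4.

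Interneuron identity genes were fitted higher for 13 and lower for 15 of 28. Gad1, the gene whose locus carries the reporter, had 46.5, 58.8, 72.9 and 75.0 CPM with stress and 53.7, 73.1, 77.6 and 151 without (log2 difference -0.49 ± 0.36), and its difference was -0.11 without non-stressed library 4. Gad2 stood at -0.31 ± 0.25, at -0.13 without that library and at 0.17 without non-stressed libraries 3 and 4. Genes of interneurons from the medial ganglionic eminence had small fitted differences: Lhx6 of 0.21 ± 0.21, Sox6 of 0.08 ± 0.21 and Sst, the gene of the neuropeptide somatostatin, of -0.02 with a 95% interval from -0.60 to 0.57. With 1 library left out they ran from 0.06 to 0.35 for Lhx6, from -0.04 to 0.24 for Sox6 and from -0.21 to 0.26 for Sst. Dlx1, a homeobox gene of the ventral forebrain, had 62.5 to 103 CPM with stress and 45.0 to 80.3 without (0.37 ± 0.33, and 0.20 without stressed library 1). Zfhx3, which encodes a large homeodomain protein, was the member of smallest p, with 92.2, 145, 74.4 and 74.8 CPM against 67.9, 66.6, 47.8 and 35.0 CPM. Every stressed library was above every non-stressed one, and the difference was 0.83 ± 0.38 and 0.52 without non-stressed libraries 3 and 4.

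Migration genes were fitted higher for 18 and lower for 17 of 35. Cnr1, the CB1 cannabinoid receptor gene, had 759, 650, 623 and 643 CPM with stress and 951, 693, 1120 and 824 without. Stressed library 1 overlapped the lowest non-stressed library, and the log2 difference was -0.42, with a 95% interval from -0.74 to -0.11 before any adjustment over genes. It stood at -0.45 and -0.47 within the 2 library codes and -0.30 without non-stressed libraries 3 and 4. Erbb4, the neuregulin receptor gene, stood at -0.03, with a 95% interval from -0.40 to 0.34, and Cxcr4, the chemokine receptor gene, at -0.35 ± 0.36 and at -0.12 without stressed library 2. Cxcl12, the gene of its ligand, was singled out after its values were seen, as the remaining member at an unadjusted p under 0.05 beside Cnr1 and Cdk5, with a log2 difference of 0.69 ± 0.33. It had 191, 204, 143 and 171 CPM with stress and 98.4, 89.1, 209 and 41.6 without, where non-stressed library 3 was the high one of its group. Cdk5, the gene of a kinase needed for neuronal migration, had 125 CPM in stressed library 1 and 29.2 to 46.6 in the rest of its group, beside 14.0 to 39.4 in the non-stressed. Its difference of 1.04 ± 0.47 was 0.34 without that library.

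Receptor, channel and vesicle genes gave more lower than higher values in the lists of ion channels and of synaptic vesicles. GABA receptor and chloride transporter genes divided 10 and 10 of 20, among them Wnk3, a kinase gene that regulates chloride transporters (-0.37 ± 0.19). Glutamate receptor genes had 10 higher and 12 lower of 22, with Cnih3, given above, as the member of smallest p and Grik1, a kainate receptor gene, next at -0.72 ± 0.35. Grik1 had 120 and 119 CPM in non-stressed libraries 3 and 4 and 37.9 to 55.3 in the other 6, and stood at 0.15 without that pair. Of 28 calcium and potassium channel genes 9 were higher and 19 lower (median -0.11), and of 26 synaptic vesicle genes 8 and 18 (median -0.10). No gene of either list had an unadjusted p under 0.05. Non-stressed library 4 had the highest sums of both lists, at 4176 and 4928 CPM. The rest of its group lay within the stressed ranges of 2936 to 3751 and 3687 to 4204 CPM. The median difference in mean log2 CPM was -0.02 for the channel genes and -0.11 for the vesicle genes.

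In the proliferation and death lists, groups did not overlap for 1 of 39 cell cycle genes, Mcm4. They did not overlap for 2 of 25 apoptosis and p53 genes, Mdm2 among them, beside 2.58% of all tested genes. Mcm4, which encodes a subunit of the replicative helicase, had 43.6, 55.8, 25.8 and 26.9 CPM with stress and 21.9, 17.6, 19.1 and 18.2 without, a log2 difference of 0.98 ± 0.47. It was 0.94 without non-stressed libraries 3 and 4. Mdm2, the gene of the ubiquitin ligase that degrades p53, had 103, 75.0, 118 and 99.4 CPM with stress and 135, 169, 157 and 135.5 without (-0.59 ± 0.26), and -0.63 without that pair. Over the lists, cell cycle genes were higher for 21 and lower for 18 of 39, and apoptosis and p53 genes for 10 and 15 of 25. Cdk6 stood at -1.21 ± 0.53 and Sesn1, a p53 target gene, at -0.62 ± 0.34, both highest in non-stressed library 3, and without it they stood at -0.68 and -0.26. Ccnd2, a cyclin gene, had 3832 to 4697 CPM with stress and 4017 to 6660 without (-0.25 ± 0.14, and -0.12 without non-stressed library 4).

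Of 16 inflammation genes 12 lay above 0 and 4 below; their median fitted difference was 0.32, with 0 members at an unadjusted p under 0.05. Their summed level was 177 to 258 CPM in the stressed libraries and 133, 152, 241 and 157 CPM in the non-stressed, so the groups overlapped through non-stressed library 3. Microglia and macrophage markers were arranged alike, at 263 to 346 CPM with stress and 158, 157, 886 and 115 without, and their part in the level of inflammation genes was not tested. Ribosomal protein genes were higher for 20 and lower for 15 of 35, and nuclear oxidative phosphorylation genes for 13 and 21 of 34. Atp5c1, a subunit of ATP synthase, had 638 CPM in stressed library 2 and 188 to 209 in the rest of its group; its difference of 0.65 ± 0.28 was 0.02 without that library.

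Transcripts of other cell types varied widely among the non-stressed libraries. Microglia and macrophage markers had the sums given above, with non-stressed library 3 the high one, and 7 of their 16 tested members were fitted higher and 9 lower. Single microglia genes did not all follow that sum. In non-stressed library 3 Cx3cr1 was highest, at 134 counts, but Tmem119 had 0 counts and P2ry12 had 35, beside 61 in stressed library 3. Pericyte and meningeal markers summed to 2611 to 3439 CPM with stress and 2157, 2529, 5136 and 3516 without (7 higher and 14 lower of 21). Endothelial markers summed to 546 to 598 CPM with stress and 440, 491, 1046 and 290 without (8 and 7 of 15). Among the latter Ly6c1 had 43 counts with stress and 2 without, a ratio of scaled counts of 17.3 (95% interval 4.50 to 147, counting error only), and 0 in stressed library 1. Non-stressed library 3, in which 198 of the 369 lower genes were highest, thus also had the highest sums of these 3 marker lists. The part of other cells in those differences was not tested.

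Markers of neurons outside the interneuron lineage overlapped between the groups. Excitatory neuron markers summed to 5528 to 7556 CPM with stress and 6553 to 7827 without, with 7 higher and 11 lower of 18. Tbr1, a transcription factor gene of deep-layer neurons, had 1051, 915, 765 and 802 CPM against 1107, 1047, 1009 and 1304 CPM, a log2 difference of -0.34 ± 0.15 with overlap through stressed library 1. Neurod6 stood at -0.34 ± 0.19. Cajal-Retzius markers summed to 2540 to 3175 CPM with stress and 2392, 1937, 3924 and 3208 without (6 and 6 of 12), with Nhlh2 (-0.92 ± 0.36) and Trp73 (-0.92 ± 0.43) highest in non-stressed library 3, without which they stood at -0.36 and -0.59. Nhlh2 stood at 0.32 without non-stressed libraries 3 and 4. Radial glia and intermediate progenitor markers divided 8 and 9 of 17, those of red blood cells 2 and 2 of 4, and those of oligodendrocytes and astrocytes 4 and 3 of 7. The tested oligodendrocyte and astrocyte markers summed to 228 to 294 CPM with stress and 225 to 318 without. Olig1 and Gfap, of the same list, had 0 counts in all 8 libraries.

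Whether stress acted differently with and without the insecticide was tested as an interaction over the 16 libraries, and no gene passed. Of 13224 genes 0 (0%) had an adjusted p under 0.05 with edgeR's quasi-likelihood test (smallest adjusted p = 0.985), and DESeq2 and limma voom also called 0. At an unadjusted p under 0.05 there were 622 (4.7%), with the stress difference more positive under cypermethrin for 213 (1.61%) and more negative for 409 (3.09%), beside 819 by DESeq2 and 469 by limma voom. Limma voom divided its genes 307 to 162, so the lean towards more negative differences, 65.8% with edgeR, was 34.5% there. Without the vehicle-exposed library whose Xist went against its label there were 582, and 345 of the 622 were among them. The fitted stress differences of the 2 backgrounds, which share no embryo, correlated across the 13224 genes with Pearson's r of 0.03 and Spearman's rho of 0.02, and had the same sign for 50.7%. Genes are not independent replicates, and these values are a description. Of the 570 genes at an unadjusted p under 0.05 with cypermethrin, 18 were also among the 672 with vehicle, 11 in the same direction. The 18 are 3.16% of the 570 and 2.68% of the 672, while the 672 are 5.08% of all tested genes.

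**Figure D5:**
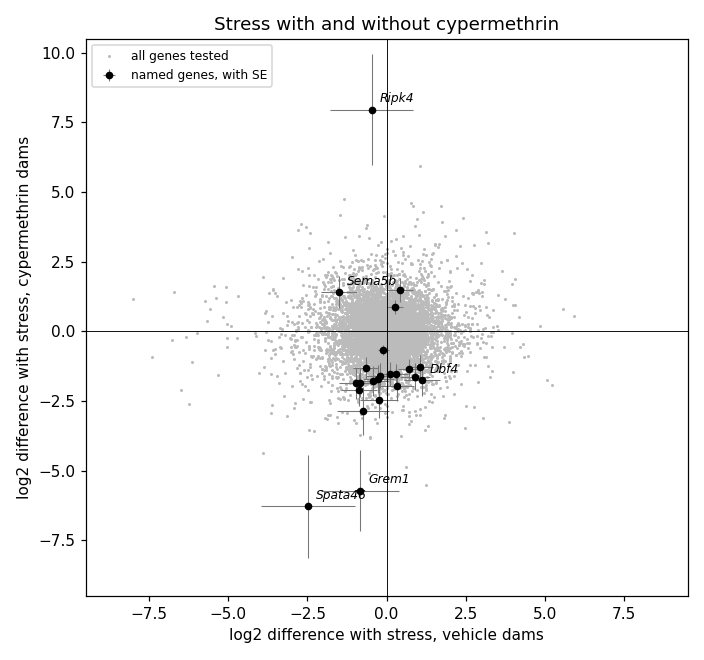
Fitted log2 difference with stress in cypermethrin-exposed embryos (vertical) against that in vehicle-exposed embryos (horizontal) for 13224 genes in grey, with the genes of smallest p in black and their standard errors as bars. The points form a round cloud, with the same sign for 50.7% of genes.

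The genes with the smallest interaction p included Cnih3, Gzf1 and Ripk4, described above. The interaction was -2.07 ± 0.51 (log2, SE) for Cnih3 and -1.62 without non-stressed library 3. It was -2.52 ± 0.68 for Gzf1, and -1.58 without that library. Dbf4, which encodes the activator of a replication-origin kinase, had 5.77 to 11.9 CPM with both exposures and 15.4 to 43.0 with cypermethrin only, without overlap, and an interaction of -2.87 ± 0.80 that ran from -3.10 to -2.64 with 1 of the 8 cypermethrin libraries left out. Dck, the deoxycytidine kinase gene of nucleotide salvage, stood at -2.33 ± 0.62. It had 180 CPM in the vehicle-exposed stressed library whose Xist went against its label, and 47.3 to 49.5 in the other 3 of that group. Without that library the interaction was -1.60 for Dck, -2.56 for Dbf4, -1.72 for Cnih3 and -2.46 for Gzf1. Sema5b, an axon guidance gene, had 61.0, 45.2, 31.1 and 28.2 CPM with both exposures and 22.5, 20.1, 7.17 and 12.6 with cypermethrin only. Its groups did not overlap, and its interaction was 2.91 ± 0.81, or 2.54 without the same vehicle library. An interaction also takes in the vehicle groups, where the log2 difference with stress was -1.50 for Sema5b and -0.47 for Ripk4. It was positive there for the others: 0.71 for Cnih3, 0.89 for Gzf1, 1.11 for Dbf4 and 1.04 for Dck. Sema5b had means of 13.8 CPM with stress and 39.5 without among vehicle embryos, beside 41.4 with both exposures.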

How the data were processed

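RNA of laser-captured GAD67-GFP-positive cells was sequenced from 16 embryos, of which 8 enter the comparison. The deposited values are raw read counts, 1 row per gene symbol and 1 column per sample; the submitters' processing notes name STAR 2.5 and mm10. How reads were assigned to genes, with which annotation, strand setting or filter, is not given in the sources used here. Groups come from the labels, and replicate numbers follow accession order and pair no samples. The main test was edgeR 4.0.16 under R 4.3.3 (filterByExpr with a count minimum of 10, leaving 13224 of 18733 genes with a count; TMM; robust quasi-likelihood fit with 1 mean for each of 4 groups over all 16 libraries; common dispersion 0.344, 12 residual and 15.1 prior degrees of freedom). A call needed a Benjamini-Hochberg adjusted p below 0.05. Standard errors derive from the F statistic, and log2 CPM used a prior count of 2. DESeq2 1.42.0, limma voom 3.58.1, RLE size factors, other filters, library code, only the 8 libraries and left-out libraries were alternatives, and the fits were tested on simulated data. Lists are described with counts and medians of fitted differences; in 8 of 28 lists, as over all genes (0.04 against -0.02), the median of differences in mean log2 CPM has the other sign. No 2 of the 8 libraries agreed within sampling noise (lowest chi-square per gene 6.02 over 28 pairs).

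Named genes are the 20 of smallest p (1 clone name skipped), the 8 of highest level with groups that do not overlap, the 6 of smallest interaction p, up to 2 per list and 20 fixed genes, of which 18 were tested. Not all of the 101 are reported here. Members, lists and rules were chosen with earlier results of these data known. Positions are from GENCODE vM21 (mm10); 29 of the 101 overlap another gene of the table, among them Fam118b, Ccdc59, Lcorl, Palm2, Wdr6, Tbp, Spata46, Nfia, Nf1, Gad1 and Ccnd2, and their counts are uncertain. Each embryo is from a separate litter.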

Additional observations from a re-analysis of the deposited data

Results flagged for a closer look

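Single libraries stood apart from the other 3 of their group in 10 of 182 groups examined (5.49%); chance flags about 1 in 20 groups. Among the non-stressed libraries, Tbp had 336 CPM in library 3 (41.9 to 58.4 in the others), Ica1 had 213 CPM in library 4 (24.2 to 32.4), and Adra2a had 0 in library 4 (1.54 to 2.02). Cebpd and Ly6c1 had 0.308 and 0.617 CPM in non-stressed library 2 and 0 in the others, a few counts each. Among the stressed libraries, Atp5c1 had 638 CPM in library 2 (188 to 209 in the others). Nfkb2, an NF-kappaB subunit gene, had 11.3 CPM in stressed library 1 (1.5 to 2.08), Fkbp5 had 19.1 CPM there (36.4 to 38.1), and Ly6c1 had 0 there (3.23 to 3.49). Spata46 had 0.221 CPM, or 1 count, in stressed library 3 and 0 in the others.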

How the results depend on the processing

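At an unadjusted p under 0.05, the stress comparison gave 1062 genes and the interaction 1203 without a filter on low counts. With library code as a term the stress comparison gave 364. Within the first code (2 stressed libraries against 1, which is assumed to vary like the other groups) it gave 156 genes, and 5 were called: Tuba1a, Rn45s, Gtf3c1, Nfix and Prtg. Within the second code it gave 197. Leaving out 1 library gave 376 to 886. Without non-stressed libraries 3 and 4 it gave 168, and without stressed library 1 as well 132, with 405 for the interaction. Without non-stressed libraries 1 and 2, 2 genes were called and 1724 were under 0.05, with 1426 for the interaction. Without libraries 3 and 4, groups did not overlap for 1642 genes, and without stressed 1 as well for 2741; smaller groups overlap less by construction. The fits without pairs were chosen after seeing the data.

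Named genes fitted lower in the full set had log2 differences above 0 within the first code: Chst11 (0.011), Ncoa1 (0.054), Nr4a3 (0.24), Homer1 (0.14), Vldlr (0.030), Rps19 (0.48), Tie1 (0.14), Lum (0.15), Tyrobp (0.95), Egr1 (0.99) and Ccnd2 (0.21). Without non-stressed libraries 3 and 4 this held for Rimbp2 (0.14), Nr4a3 (0.065), Scn3a (0.25), Grik1 (0.15), Nhlh2 (0.32), Lum (0.26), Tyrobp (0.77), Gad2 (0.17), Egr1 (0.70) and Ccnd2 (0.089). Egr1 ran from -0.94 to 0.21 with 1 library left out. The cause was not tested. These are the genes whose full-set difference exceeds its standard error; counting the smaller ones too, 73 of 89 named genes kept their sign without non-stressed libraries 3 and 4, 72 of 86 within the first code, 83 of 86 within the second, 86 of 89 with limma voom, and 86 to 89 of 89 with 1 library left out. No paired analysis was possible because replicate numbers come only from accession order. Depth limits the lowest quartile of genes, whose median standard error was 1.16.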

Other observations

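Of 64 genes with a mean above 1000 CPM in the 8 libraries, 6 had an unadjusted p under 0.05 (9.38%, beside 4.31% of all tested genes and 5.05% of the highest quartile); those that no rule had named were singled out after their values were seen. Ncam1, a neural cell adhesion gene, had 6708 CPM in non-stressed library 3 and 809 to 1248 in the other 7 (log2 difference -1.32 ± 0.57, SE). Gnas, the gene of a stimulatory G protein subunit, had 2198 and 2547 CPM in non-stressed libraries 3 and 4 and 1178 to 1736 in the other 6 (-0.46 ± 0.16). Kcnq1ot1, an imprinted noncoding RNA, had 2220 CPM in non-stressed library 4 and 896 to 1399 in the other 7 (-0.43 ± 0.20). Tuba1a, a tubulin gene of young neurons, had 2818 CPM in non-stressed library 4 and 8884 in stressed library 1, while the other 6 libraries lay between 5295 and 6404 (0.47 ± 0.16).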
